A study of Mus musculus with 10 samples.

Results

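The genes described here are the suppressors of cytokine signalling (Socs1, Socs2, Socs3, Socs5, Socs6, Socs7 and the related Cish) and the STAT5 transcription factors (Stat5a and Stat5b), 9 of the 19938 genes with a named probe set on the array. The genes were listed by symbol, and the set was chosen by the measured log2 increase of Socs2 after immunization, among the largest of all genes. That increase is therefore given as a description with no test. The cells were labelled splenic type 2 conventional dendritic cells (cDC2), sorted from CD11c-enriched, enzyme-digested spleens. The Notch2-11cKO groups came from mice with floxed Notch2 alleles and a CD11c-Cre transgene, and the WT groups from wild-type mice. CD11c-Cre acts in CD11c-expressing cells in general, so the deletion is not specific to cDC2. Treated mice had been given 200000000 sheep red blood cells (SRBC) into the peritoneum 24 hours earlier. There were 3 arrays of Notch2-11cKO SRBC, 3 of WT SRBC, 2 of Notch2-11cKO untreated and 2 of WT untreated. The labels do not say whether replicates came from separate mice, so the p-values measure only the spread between these arrays, which may be technical.

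Cytokine receptors without their own kinase activity signal through JAK kinases, which phosphorylate STAT proteins. STAT5, made as 2 closely related proteins from neighbouring genes, is activated by GM-CSF, IL-2, IL-7, TSLP and related cytokines and switches on Cish and several SOCS genes, whose products then dampen the same receptors. SOCS proteins bind phosphorylated receptors or JAKs through an SH2 domain and, through their SOCS box, recruit a ubiquitin ligase. In dendritic cells GM-CSF and TSLP are the best known STAT5-activating signals, and Socs1 and Socs3 are known as restraints on interferon and gp130 signalling.

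Array medians ranged over 29.5 to 31.7 intensity units, and precision is limited by how few arrays there were. Over the brighter genes, WT SRBC 1 was the least similar of its group (r = 0.929 and 0.928 with the others, which correlated at 0.984), and so was Notch2-11cKO SRBC 3 (r = 0.947 and 0.936, while its partners correlated at 0.972). The signal of Notch2 was not lower in Notch2-11cKO arrays: log2 intensities were 7.96, 7.64 and 7.23 in Notch2-11cKO SRBC, 7.58, 7.09 and 7.10 in WT SRBC, 8.37 and 8.17 in Notch2-11cKO untreated and 8.11 and 8.14 in WT untreated. Which part of the gene is removed is not stated in the labels, so this probe set does not check the genotype. Of 12 cDC2 markers, 2 were higher (Cd209a and Itgam) and 3 lower (Clec4a4, Cd7 and Esam) in Notch2-11cKO after SRBC. Without treatment 1 was higher (Cd209a) and 4 were lower (Clec4a4, Cd7, Esam and Cd4). By the same rule 5.32% of all genes differed in either direction after SRBC and 5.11% without treatment. No detection call was used, so no marker was called absent.

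Socs2, a feedback inhibitor best known for restraining growth hormone signalling, had low signal in untreated cells and high signal after SRBC in both genotypes. Its log2 intensity was 8.11, 8.49 and 7.98 in Notch2-11cKO SRBC and 9.77, 8.42 and 8.84 in WT SRBC. In untreated cells it was 5.09 and 6.40 in Notch2-11cKO and 4.91 and 4.98 in WT. Every SRBC array lay above every untreated array. Relative to untreated cells of the same genotype, Socs2 was higher by log2 2.45 ± 0.41 (standard error of the fit, 5.45-fold) in Notch2-11cKO and by log2 4.06 ± 0.41 (16.7-fold) in WT. Among all genes this was the 7th largest increase in Notch2-11cKO and the largest in WT. In Notch2-11cKO its neighbours in rank were Atxn1 (log2 2.49 ± 0.49) just above and Cd14, the lipopolysaccharide co-receptor, (log2 2.44 ± 0.60) just below. In WT the next genes were Il12b, which encodes the p40 chain of IL-12, (log2 3.80 ± 0.52) and Il1a (log2 3.66 ± 0.92).

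Between the genotypes, Socs2 did not differ past the threshold, with or without SRBC (adjusted p below 0.05, from a limma fit over all 19938 genes). These tests share arrays with the increases for which the gene was chosen. After SRBC the difference was log2 -0.82 ± 0.37 (95% interval -1.63 to -0.01, adjusted p = 0.28), and the genotypes overlapped. The highest Notch2-11cKO array, at 8.49, lay above the lowest WT array, at 8.42. Without WT SRBC 1, the highest of the 10 arrays for Socs2, the difference was log2 -0.44 ± 0.33 (adjusted p = 0.547). In untreated cells it was log2 0.80 ± 0.45 (95% interval -0.19 to 1.79, adjusted p = 0.495), with both Notch2-11cKO arrays above both WT arrays. The 2 Notch2-11cKO untreated arrays were far apart for this gene. The untreated difference was log2 1.46 ± 0.46 without the lower of them, Notch2-11cKO untreated 1 (adjusted p = 0.194), and log2 0.14 ± 0.46 without the higher, Notch2-11cKO untreated 2 (adjusted p = 0.997). The increase after SRBC in Notch2-11cKO moved with the same arrays, to log2 1.79 without Notch2-11cKO untreated 1 and to log2 3.10 without Notch2-11cKO untreated 2. The Notch2-11cKO increase minus the WT increase was log2 -1.62 ± 0.58. Without Notch2-11cKO untreated 1 it was log2 -2.28, and without Notch2-11cKO untreated 2 it was log2 -0.96.

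**Figure D1:**
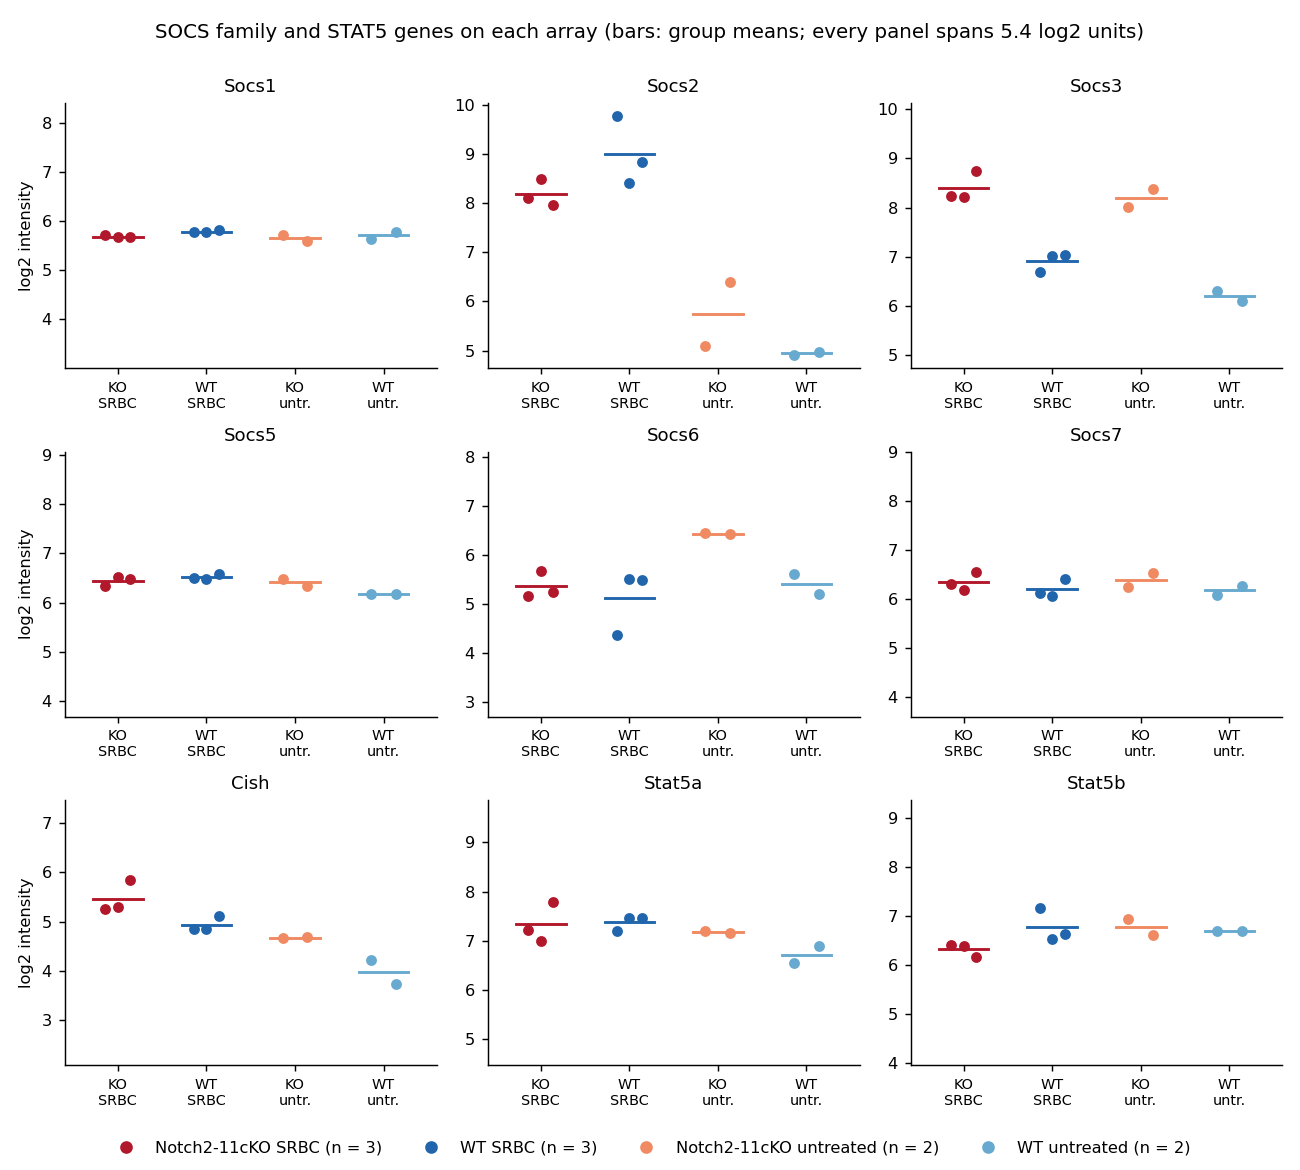
Log2 intensity of each of the 9 genes on each of the 10 arrays (points) with the group means (bars), for Notch2-11cKO SRBC, WT SRBC, Notch2-11cKO untreated and WT untreated (KO: Notch2-11cKO). Every panel spans the same number of log2 units, so the wide gap of Socs2 between SRBC and untreated arrays and that of Socs3 between genotypes can be set against the narrow spread of Socs1, Socs5 and Socs7.

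A second probe set for Socs2 gave the same order of groups on a lower signal. It read 6.82, 7.56 and 7.03 in Notch2-11cKO SRBC, 8.52, 7.53 and 7.88 in WT SRBC, 5.37 and 5.66 in Notch2-11cKO untreated and 4.93 and 4.92 in WT untreated. With this probe set the untreated Notch2-11cKO arrays lay close together, and the 2 probe sets correlated with r = 0.986 over the 10 arrays. The increases after SRBC were smaller on this probe set, log2 1.62 ± 0.29 in Notch2-11cKO and log2 3.05 ± 0.29 in WT.

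Socs3, the inhibitor of gp130 and G-CSF receptor signalling, differed by genotype in both conditions. It read 8.23, 8.22 and 8.75 in Notch2-11cKO SRBC, against 6.69, 7.02 and 7.03 in WT SRBC. In untreated cells it read 8.02 and 8.39 in Notch2-11cKO, against 6.30 and 6.10 in WT. All 5 Notch2-11cKO arrays lay above all 5 WT arrays. Socs3 was higher in Notch2-11cKO by log2 1.49 ± 0.20 after SRBC (2.81-fold, adjusted p = 0.00113 by limma, n = 3 and 3) and by log2 2.00 ± 0.24 without treatment (4.01-fold, adjusted p = 0.000513 by limma, n = 2 and 2). It was the only one of the 9 genes to pass the threshold between genotypes, where 5.32% of all genes passed it after SRBC (3.36% as higher) and 5.11% without treatment (2.95% as higher). Both calls survived the omission of each array in turn, with highest adjusted p of 0.00554 after SRBC and 0.0116 without treatment. After SRBC, Socs3 itself was higher by log2 0.20 ± 0.22 in Notch2-11cKO (adjusted p = 0.827) and by log2 0.71 ± 0.22 in WT (adjusted p = 0.11), and neither response passed.

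A second Socs3 probe set read 6.64, 6.92 and 7.67 in Notch2-11cKO SRBC, 6.35, 6.01 and 6.47 in WT SRBC, 7.75 and 7.63 in Notch2-11cKO untreated and 5.38 and 6.02 in WT untreated. The genotypes did not overlap on this probe set either. Its untreated difference, log2 1.98 ± 0.33 (adjusted p = 0.00689 by limma), was close to that of the brighter probe set. After SRBC its difference was log2 0.80 ± 0.27 and did not pass (adjusted p = 0.154 by limma). The sign of the response in Notch2-11cKO also depended on the probe set (log2 -0.61 ± 0.30 here), and passed on neither.

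Markers of other myeloid cells moved with genotype in the same arrays. Of all genes, 5.32% passed between genotypes after SRBC (3.36% as higher) and 5.11% without treatment (2.95% as higher). Of 12 measured macrophage markers, 8 were higher in Notch2-11cKO after SRBC and 8 without treatment, and none was lower. Their summed intensity ranged over 3586 to 4446 in Notch2-11cKO SRBC, 1632 to 2407 in WT SRBC, 3864 to 4664 in Notch2-11cKO untreated and 980 to 1053 in WT untreated. Of 8 measured monocyte markers, 6 were higher in Notch2-11cKO after SRBC, and 6 were higher and 1, Treml4, lower without treatment. Their summed intensity ranged over 10336 to 13199 in Notch2-11cKO SRBC, 1718 to 2036 in WT SRBC, 11097 to 12496 in Notch2-11cKO untreated and 1516 to 1755 in WT untreated. Of 8 measured markers of type 1 conventional dendritic cells (cDC1), 3 were higher and 1, Cd8a, lower in Notch2-11cKO after SRBC, and 4 were higher without treatment. Their summed intensity ranged over 1050 to 1324 in Notch2-11cKO SRBC, 688 to 789 in WT SRBC, 1426 to 1473 in Notch2-11cKO untreated and 515 to 641 in WT untreated. Of 6 measured markers of plasmacytoid dendritic cells, 3 were higher in Notch2-11cKO after SRBC and 2 without treatment, with sums of 842 to 1246 in Notch2-11cKO SRBC, 451 to 495 in WT SRBC, 820 to 976 in Notch2-11cKO untreated and 422 to 511 in WT untreated. No marker is listed at 0, as array intensities have no true 0. The part of these markers in the Socs3 difference was not tested. In sorted cells measured in bulk, a change in the number of cells of a type and a change in RNA per cell cannot be told apart.

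**Figure D2:**
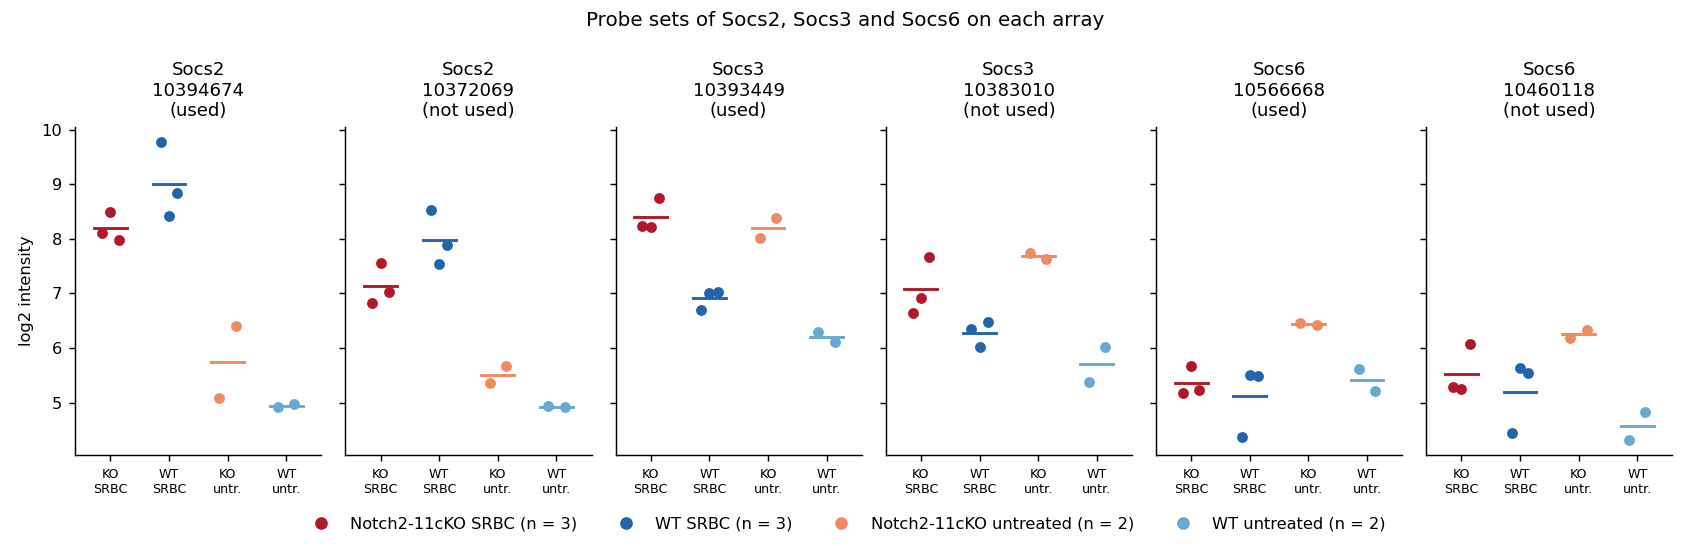
Log2 intensity on each array (points) with group means (bars) for the probe set used and for another probe set of Socs2, Socs3 and Socs6, in the 4 groups (KO: Notch2-11cKO). Both Socs2 probe sets lay higher in SRBC than in untreated arrays and both Socs3 probe sets higher in Notch2-11cKO, while the second Socs3 probe set narrowed after SRBC (log2 0.80 between genotypes, against log2 1.98 without treatment).

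Cish, a STAT5-induced inhibitor of receptors such as those for IL-2 and GM-CSF, was highest in Notch2-11cKO SRBC and lowest in WT untreated. It read 5.26, 5.30 and 5.84 in Notch2-11cKO SRBC and 4.85, 4.85 and 5.11 in WT SRBC. Untreated cells read 4.66 and 4.68 in Notch2-11cKO and 4.21 and 3.72 in WT. None of the 4 groups overlapped its neighbour in this order. Cish rose after SRBC in WT by log2 0.97 ± 0.20 (1.96-fold, adjusted p = 0.023 by limma, n = 3 and 2). It was the only one of the 8 genes other than Socs2 to pass in that response, against 3.79% of all genes (1.82% as higher). In Notch2-11cKO it was higher after SRBC by log2 0.80 ± 0.20, which did not pass (adjusted p = 0.141 by limma), and none of the 8 genes passed there, against 0.306% of all genes. Of those 8, 2 (Cish and Socs6) had an unadjusted p below 0.05, as did 10% of all genes. The 2 responses differed by log2 -0.18 ± 0.28 (Notch2-11cKO minus WT, 95% interval -0.79 to 0.45). Cish read higher in Notch2-11cKO than in WT by log2 0.53 ± 0.18 after SRBC (adjusted p = 0.128) and by log2 0.71 ± 0.22 without treatment (adjusted p = 0.108), and neither difference passed.

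The WT call of Cish was lost without WT SRBC 2 (adjusted p = 0.0523), WT SRBC 3 (adjusted p = 0.0772), WT untreated 1 (adjusted p = 0.0679) or WT untreated 2 (log2 0.73 ± 0.24, adjusted p = 0.233), and held without any of the other 6 arrays. Immediate-early and heat shock genes, which respond to tissue digestion, moved with treatment. Of 27 measured, 4 fell after SRBC in Notch2-11cKO, against 0.306% of all genes in either direction. In WT 11 fell, against 3.79% of all genes in either direction, and none rose in either genotype. With single arrays left out these counts were 1 to 6 in Notch2-11cKO and 4 to 17 in WT, both highest without WT SRBC 1 and the WT count lowest without WT untreated 1. Their summed intensity ranged over 22444 to 33904 in Notch2-11cKO SRBC, 21903 to 28544 in WT SRBC, 45468 to 46965 in Notch2-11cKO untreated and 52817 to 55312 in WT untreated. The mean log2 intensity of these immediate-early and heat shock genes was also used as a covariate, named the immediate-early covariate below. It was lower on every SRBC array than on every untreated array. Fits with it therefore cannot tell a treatment response from the change of these genes. In this fit the WT response of Cish was log2 0.19 ± 0.44 (adjusted p = 0.889 by limma). The increase of Socs2 was log2 3.37 ± 0.66 in Notch2-11cKO and log2 5.47 ± 0.91 in WT.

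Cell type markers also moved with treatment. Of all genes, 0.306% passed in either direction in the Notch2-11cKO response and 3.79% in the WT response (1.82% as higher). Of the 12 cDC2 markers, 1 fell after SRBC in Notch2-11cKO (Cd209a, by 1.49 on the log2 scale) and 3 fell in WT (Cd209a, Itgam and Cd4, by 1.83, 1.44 and 1.32). In WT 3 of 12 macrophage markers rose (Vcam1, C1qc and Spic), 3 of 8 cDC1 markers (Xcr1, Cd8a and Irf8), 1 of 8 monocyte markers (Cd14) and 1 of 4 erythroid markers (Car2). None of the macrophage, cDC1, monocyte and erythroid lists had a marker past the threshold by limma in Notch2-11cKO. At an unadjusted p below 0.05 in either direction were 3 macrophage, 0 cDC1, 4 monocyte and 1 erythroid markers, against 10% of all genes. The medians of these lists were, in that order, log2 0.24, -0.08, -0.19 and 0.14, against log2 0.03 for all genes. Of 6 neutrophil markers, S100a8 rose in both genotypes, and the summed intensity of the list ranged over 392 to 1033 in Notch2-11cKO SRBC, 273 to 398 in WT SRBC, 111 to 311 in Notch2-11cKO untreated and 104 to 108 in WT untreated. The part of these markers in the Socs2 and Cish responses was not tested.

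**Figure D3:**
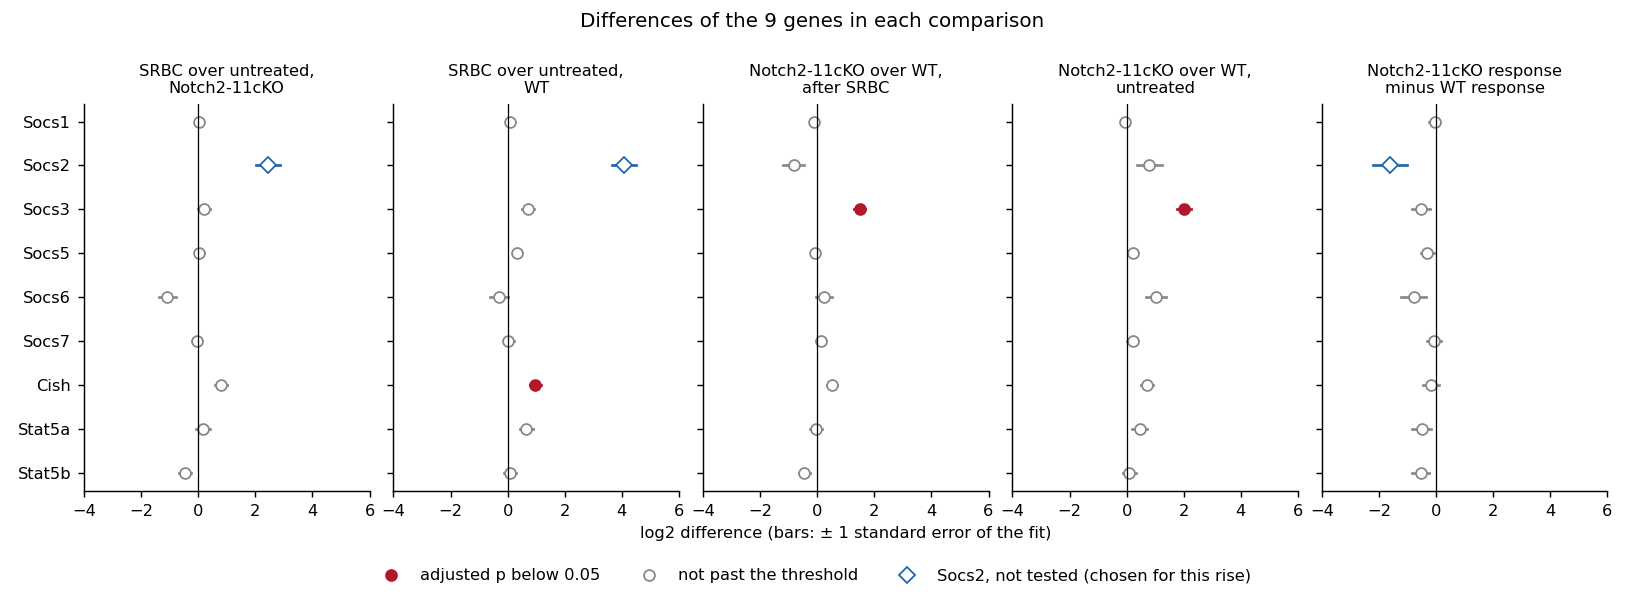
Log2 differences of the 9 genes (points) with 1 standard error of the fit to each side (bars) in the SRBC response of each genotype, between genotypes after SRBC and without treatment, and in the difference of the responses. Filled points passed the threshold: Cish in the WT response and Socs3 in both genotype comparisons, while the Socs2 responses are drawn as diamonds because they were not tested.

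STAT5 and several other STATs bind paired half-sites of the form TTCNNNGAA, a motif that reads the same on both strands. It was searched in the windows of a RefSeq promoter table (build GRCm38.p6), each reaching from 250 bases before to 50 after a start the table uses, which were at hand for 5 of the 9 genes (Socs1, Socs3, Cish, Stat5a and Stat5b). A gene can have several windows, and those of Socs3, Stat5a and Stat5b are built on starts inside the annotated span of the gene. Windows of Socs2, Socs5, Socs6 and Socs7 were not used here. The motif was present in the windows of Cish and Socs3, and in 8.3% of the 32851 windows of all genes. The Cish window held 2 copies, 2 bases apart, the first beginning at the start of the gene, and 0.457% of all windows held 2 or more. The Socs3 window held 1 copy, which begins 154 bases before the start on which its window is built and so lies within the annotated span of the gene. A match describes the letters only, and binding was not measured. Both stretches are shown 5′ to 3′ on the strand of the gene, with the motif in capitals. Cish lies on the plus strand (chr9:107296649-107296678) and Socs3 on the minus strand (chr11:117969492-117969540).
Cish: ccgcccagttTTCCTGGAAagTTCTTGGAA
Socs3: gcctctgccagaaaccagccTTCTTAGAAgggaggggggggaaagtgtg

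Socs6, known for binding receptor tyrosine kinases such as Kit, read 5.17, 5.67 and 5.24 in Notch2-11cKO SRBC and 4.36, 5.50 and 5.49 in WT SRBC. In untreated cells it read 6.46 and 6.42 in Notch2-11cKO and 5.61 and 5.21 in WT. The untreated Notch2-11cKO arrays lay above all others, and the remaining groups overlapped. The response in Notch2-11cKO was log2 -1.08 ± 0.31 (adjusted p = 0.213 by limma) and the untreated genotype difference log2 1.03 ± 0.34 (adjusted p = 0.136 by limma), so neither passed. Both passed without WT SRBC 1, which read lowest and is in neither comparison. The differences stayed at log2 -1.08 (adjusted p = 0.0297) and log2 1.03 (adjusted p = 0.0105), by limma. Their standard errors, which rest on the spread in all groups, became 0.185 and 0.202. A second Socs6 probe set read 6.18 and 6.34 in Notch2-11cKO untreated, against 4.31 and 4.83 in WT untreated, a difference of log2 1.69 ± 0.40 (adjusted p = 0.0429 by limma). Its Notch2-11cKO response, log2 -0.73 ± 0.36, did not pass (adjusted p = 0.569 by limma). Its WT response had the opposite sign, log2 0.63 ± 0.36, to that of the brighter probe set, log2 -0.29 ± 0.31, and neither passed. The remaining, dim probe set had no difference past the threshold.

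Stat5a and Stat5b lie next to each other on chromosome 11, and their products share most of their known targets. Stat5a read 7.21, 6.996 and 7.79 in Notch2-11cKO SRBC, 7.19, 7.46 and 7.46 in WT SRBC, 7.19 and 7.16 in Notch2-11cKO untreated and 6.54 and 6.89 in WT untreated. WT untreated was the one group that lay below all the others. The response of Stat5a in WT was log2 0.66 ± 0.24 (adjusted p = 0.173 by limma) and in Notch2-11cKO log2 0.16 ± 0.24 (adjusted p = 0.888). Without both arrays that stood apart the WT response of Stat5a was log2 0.75 ± 0.17 (adjusted p = 0.0156 by limma), and that of Socs3 was log2 0.83 ± 0.17 (adjusted p = 0.00947 by limma).

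Stat5b read 6.42, 6.39 and 6.17 in Notch2-11cKO SRBC, 7.16, 6.53 and 6.63 in WT SRBC, 6.95 and 6.62 in Notch2-11cKO untreated and 6.69 in both WT untreated arrays. Notch2-11cKO SRBC was the lowest group and overlapped none of the others. Its difference from WT SRBC was log2 -0.45 ± 0.19 (adjusted p = 0.252 by limma) and from untreated Notch2-11cKO log2 -0.46 ± 0.21 (adjusted p = 0.508), so it did not pass. Over the 10 arrays, Stat5a and Stat5b correlated with r = -0.367, given as a description.

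Socs1, the main restraint on interferon and IL-12 signalling, varied least. It ranged over 5.67 to 5.72 in Notch2-11cKO SRBC, 5.77 to 5.81 in WT SRBC, 5.60 to 5.71 in Notch2-11cKO untreated and 5.64 to 5.78 in WT untreated. Its largest difference was log2 -0.10 ± 0.12 between genotypes after SRBC (95% interval -0.37 to 0.16, adjusted p = 0.75 by limma). Socs5, described as a restraint on IL-4 and EGF receptor signalling, ranged over 6.33 to 6.53 in Notch2-11cKO SRBC, 6.48 to 6.58 in WT SRBC, 6.34 to 6.48 in Notch2-11cKO untreated and was 6.18 in both WT untreated arrays. Its WT response of log2 0.34 ± 0.15 did not pass (adjusted p = 0.293 by limma). Socs7, which has been linked to insulin signalling, overlapped between all groups, with differences between log2 -0.07 and log2 0.21.

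Counted by separation alone, 4 of the 8 genes other than Socs2 had every WT SRBC array above every WT untreated array (Socs3, Socs5, Cish and Stat5a), where 17.8% of all genes did. In Notch2-11cKO the groups did not overlap for 3 of the 8, 1 higher (Cish) and 2 lower (Socs6 and Stat5b), where 16.1% of all genes were higher and 12.2% lower in that way. Between genotypes the groups did not overlap for 4 of the 9 genes after SRBC, 2 higher (Socs3 and Cish) and 2 lower (Socs1 and Stat5b), against 9.96% of all genes higher and 10.4% lower. Without treatment 6 of the 9 were higher in Notch2-11cKO with no overlap (Socs2, Socs3, Socs5, Socs6, Cish and Stat5a), against 22% of all genes. None of the 8 passed in the difference of the responses by limma, where 0.0201% of all genes did, and 0 of the 8 had an unadjusted p below 0.05, against 6.47% of all genes. The comparisons share arrays, so these counts are not independent of each other.

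The kinases and the ubiquitin ligase parts with which SOCS proteins work passed in no comparison by limma. The JAK kinases Jak1, Jak2 and Tyk2 had differences between log2 -0.48 and log2 0.59, and Jak3 was not analysed here. At an unadjusted p below 0.05, 1 of these 3 kinases was found in each SRBC response and 1 between genotypes after SRBC, and none in the other comparisons. Of all genes, 10% had such a p in the Notch2-11cKO response, 16.8% in the WT response and 17.4% between genotypes after SRBC. None of the 5 measured partners of the SOCS box passed, where 2 had an unadjusted p below 0.05 in the Notch2-11cKO response and 1 in the WT response. Arih2 came near the threshold in WT, higher after SRBC by log2 0.98 ± 0.25 (adjusted p = 0.0545 by limma). In Notch2-11cKO it was higher by log2 0.81 ± 0.25 (adjusted p = 0.252 by limma). In the WT response 1 of the 5 passed without Notch2-11cKO SRBC 3. Without WT SRBC 1 and Notch2-11cKO SRBC 3 together, 2 passed as higher there. Socs4 had responses of log2 0.26 ± 0.19 in Notch2-11cKO and log2 0.22 ± 0.19 in WT (adjusted p = 0.717 and 0.648 by limma).

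Among the other STAT genes, Stat4, which transmits IL-12 and IL-23 signals, differed between genotypes after SRBC. It read 7.10, 7.21 and 9.22 in Notch2-11cKO SRBC, 9.91, 10.68 and 10.76 in WT SRBC, 5.82 and 5.93 in Notch2-11cKO untreated and 7.68 and 7.69 in WT untreated. Within each condition every Notch2-11cKO array lay below every WT array. Stat4 rose after SRBC in WT by log2 2.77 ± 0.52 (adjusted p = 0.014 by limma) and was lower in Notch2-11cKO than in WT after SRBC by log2 -2.61 ± 0.46 (adjusted p = 0.00682 by limma). The genotype call after SRBC held whichever array was omitted. The untreated genotype difference, log2 -1.81 ± 0.57 (adjusted p = 0.114 by limma), and the Notch2-11cKO response, log2 1.97 ± 0.52 (adjusted p = 0.168 by limma), did not pass. The WT response lost its call without WT untreated 1 (adjusted p = 0.144), WT untreated 2 (adjusted p = 0.116), WT SRBC 2 (adjusted p = 0.0512) or WT SRBC 3 (adjusted p = 0.0542). Stat2, which transmits type I interferon signals, fell after SRBC in WT by 1.07 ± 0.22 on the log2 scale (adjusted p = 0.0227 by limma). That call was lost without WT SRBC 3 (adjusted p = 0.0639), WT untreated 1 (adjusted p = 0.144) or WT untreated 2 (adjusted p = 0.186). With the immediate-early covariate, the WT response of Stat4 turned its sign (log2 -0.77, adjusted p = 0.593 by limma), and that of Stat2 did not pass (adjusted p = 0.0702). Stat3 and Stat6 passed in no comparison, with responses in WT of log2 0.51 ± 0.18 and log2 0.38 ± 0.24 (adjusted p = 0.165 and 0.482 by limma).

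Of 20 measured receptor genes that can take part in STAT5 signalling, not all of them chiefly, 6 rose after SRBC in WT and none fell. Of all genes 1.82% rose there, and the median of the list was log2 0.23, against log2 0.03 for all genes. Il7r, the IL-7 and TSLP receptor chain, read 9.02, 9.14 and 9.01 in WT SRBC, against 6.45 and 6.32 in WT untreated, and rose by log2 2.67 ± 0.18 (adjusted p = 7.29e-05 by limma). Il2ra, the high-affinity IL-2 receptor chain, rose by log2 2.38 ± 0.33, and Il4ra and Il21r rose by log2 1.34 ± 0.20 and log2 1.40 ± 0.22. In Notch2-11cKO Il2ra rose by log2 1.91 ± 0.33 (adjusted p = 0.0416 by limma), and none of the other 19 receptors passed. The count in WT was between 2 and 8 with single arrays left out, lowest without WT untreated 1, and none of the 20 passed with the immediate-early covariate. Without WT untreated 1, Il4ra (adjusted p = 0.0943) and Il21r (adjusted p = 0.11) lost their calls, and Il2ra lost its WT call without WT untreated 2 (adjusted p = 0.0513). The Notch2-11cKO call of Il2ra held without WT SRBC 1 or WT SRBC 2 and was lost without any of the other 8 arrays (highest adjusted p = 0.392, without Notch2-11cKO untreated 1).

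Between genotypes the growth factor receptors of the list moved in both directions. Csf1r, the M-CSF receptor and a monocyte marker, was higher in Notch2-11cKO by log2 1.71 ± 0.18 after SRBC and by log2 2.24 ± 0.22 without treatment. Csf3r, the G-CSF receptor that SOCS3 restrains, was higher by log2 0.93 ± 0.15 after SRBC and by log2 1.03 ± 0.19 without treatment. Kit, the stem cell factor receptor, was lower by log2 -1.39 ± 0.20 after SRBC and by log2 -2.27 ± 0.24 without treatment. Il7r was higher in untreated Notch2-11cKO by log2 2.14 ± 0.20, reading 8.46 and 8.60 there, against 6.45 and 6.32 in WT untreated. After SRBC it read 9.30, 9.60 and 9.74 in Notch2-11cKO, against 9.02, 9.14 and 9.01 in WT, and did not pass (log2 0.49 ± 0.16, adjusted p = 0.125 by limma). Il21r was lower in Notch2-11cKO after SRBC by log2 -1.02 ± 0.19. After SRBC 2 of the 20 passed as higher and 2 as lower, against 5.32% of all genes in either direction. Without treatment 3 passed as higher and 1 as lower, against 5.11% of all genes in either direction. These calls held with any single array left out, except Csf3r without treatment, which was lost without Notch2-11cKO untreated 2 (adjusted p = 0.0877) or WT untreated 1 (adjusted p = 0.109).

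Of 14 measured receptors of the gp130, IL-10, IL-12 and interferon families, Il12rb2, the signalling chain of the IL-12 receptor, had the largest differences. It was lower in Notch2-11cKO by log2 -2.32 ± 0.29 after SRBC (adjusted p = 0.000772 by limma) and by log2 -2.45 ± 0.36 without treatment (adjusted p = 0.00188 by limma), in each case with any single array left out. Il23r was lower by log2 -0.93 ± 0.18 after SRBC, and lost its call without WT SRBC 3 (adjusted p = 0.0515). Lifr was higher by log2 1.80 ± 0.35 after SRBC, and lost its call without Notch2-11cKO SRBC 1 (adjusted p = 0.057) or WT SRBC 2 (adjusted p = 0.0564). Ifnar1 was higher by log2 0.84 ± 0.20 in untreated Notch2-11cKO, with the call held in 5 of 10 fits that left out an array and the highest adjusted p 0.242, without WT untreated 1. In the WT response 1 of the 14 rose (Il23r) and 1 fell (Il10ra), against 3.79% of all genes in either direction. The call of Il10ra held in 2 of 10 fits that left out an array (highest adjusted p = 0.347, without WT untreated 1), and that of Il23r was lost without WT untreated 1 (adjusted p = 0.104) or WT untreated 2 (adjusted p = 0.14). The count was between 0 and 4 in those fits, lowest without WT untreated 1, and both calls were lost with the immediate-early covariate (adjusted p = 0.164 for Il23r, and 0.895 for Il10ra, whose sign turned to log2 0.28). In the Notch2-11cKO response none of the 14 passed by limma, against 0.306% of all genes. Of the 14, 3 had an unadjusted p below 0.05, against 10% of all genes.

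Of 24 measured ligands, 3 were higher in Notch2-11cKO after SRBC (Il6, Osm and Igf1), where 3.36% of all genes were. Without treatment 2 were higher (Il6 and Osm), where 2.95% of all genes were, and none was lower in either condition. With single arrays left out the count was 2 to 4 after SRBC and 0 to 4 without treatment (0 without WT untreated 2). Il6 and Osm are gp130 cytokines. Il6 read 8.00, 7.96 and 9.67 in Notch2-11cKO SRBC, 6.13, 6.32 and 6.99 in WT SRBC, 5.85 and 6.43 in Notch2-11cKO untreated and 3.37 and 3.11 in WT untreated. Every Notch2-11cKO array lay above the WT arrays of its condition, by log2 2.06 ± 0.41 on average after SRBC (adjusted p = 0.0129 by limma) and log2 2.90 ± 0.50 without treatment (adjusted p = 0.00547 by limma). The calls of Il6 were lost without WT SRBC 2 after SRBC (adjusted p = 0.0526), and without Notch2-11cKO untreated 2 (adjusted p = 0.0608) or WT untreated 2 (adjusted p = 0.0609) in untreated cells. Osm was higher by log2 1.30 ± 0.23 after SRBC, with any single array left out, and by log2 1.21 ± 0.28 without treatment, a call lost without Notch2-11cKO untreated 2 (adjusted p = 0.256), WT untreated 1 (adjusted p = 0.226) or WT untreated 2 (adjusted p = 0.103). Igf1, the insulin-like growth factor gene, was higher by log2 1.19 ± 0.25 after SRBC (adjusted p = 0.0173 by limma), a call lost without Notch2-11cKO SRBC 2 (adjusted p = 0.0737). Csf2, the gene of GM-CSF, and Tslp passed in no comparison, and their signals stayed within 2.81 to 3.40 and 2.49 to 3.51 on the log2 scale. In the WT response Il12b and Il6 rose (log2 3.80 ± 0.52 and log2 3.24 ± 0.46), both calls lost without WT untreated 1 (log2 3.40 and log2 3.37). With the immediate-early covariate none of the ligands passed in that response. In that fit Il12b was at log2 4.27 (adjusted p = 0.182 by limma) and Il6 at log2 0.66 (adjusted p = 0.752 by limma).

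Genes known to respond to STAT5 moved in both directions, and no expected direction was set for any of them. Of 16 measured, 3 rose (Il2ra, Id2 and Irf8) and 3 fell (Ccnd1, Gadd45g and Bcl6) after SRBC in WT. Of all genes 3.79% passed in either direction there. In Notch2-11cKO 1 rose (Il2ra), against 0.306% of all genes in either direction. The median of the list was log2 -0.02 in WT and log2 -0.32 in Notch2-11cKO, against log2 0.03 for all genes in each. Ccnd1, which encodes cyclin D1, fell after SRBC in WT by 1.67 ± 0.29 on the log2 scale and was lower in untreated Notch2-11cKO by log2 -2.31 ± 0.32. Id2, a factor needed by several dendritic cell lineages, rose by log2 0.85 ± 0.18 in WT. The count in the WT response was between 1 and 7 with single arrays left out, lowest without WT untreated 1, where Ccnd1 (adjusted p = 0.114) and Id2 (adjusted p = 0.262) lost their calls, and it was 0 with the immediate-early covariate. When only the groups compared were fitted, the WT calls of Irf8 (adjusted p = 0.101), Bcl6 (adjusted p = 0.0677) and Gadd45g (adjusted p = 0.0904) were lost by limma. The untreated genotype difference of Ccnd1 held with any single array left out.

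Of 15 other regulators of JAK-STAT signalling, listed as brakes though not all of them only restrain it, 2 rose after SRBC in WT. These were Cblb, a ubiquitin ligase (log2 1.58 ± 0.25), and Ptpn2, a phosphatase that acts on JAKs and STATs (log2 1.05 ± 0.17). In the same response 4 fell, among them Cbl (by 0.95 ± 0.17 on the log2 scale) and Usp18, which restrains interferon receptor signalling (by 1.25 ± 0.24). Of all genes 3.79% passed in either direction. The count of 6 was between 0 and 6 with single arrays left out, lowest without WT untreated 1, and 0 with the immediate-early covariate. Cblb, Ptpn2 and Cbl lost their calls without WT untreated 1 (adjusted p = 0.104, 0.134 and 0.154) or WT untreated 2 (adjusted p = 0.0629, 0.0572 and 0.0954). Usp18 lost its call without WT SRBC 2 or WT SRBC 3 as well (highest adjusted p = 0.182, without WT untreated 2). In Notch2-11cKO Ptpn2 alone rose after SRBC (log2 1.01 ± 0.17, adjusted p = 0.0416 by limma), a call held in 2 of the 10 fits that left out an array. When the probe sets of each gene were averaged, Ptpn2 passed in neither genotype (adjusted p = 0.467 in Notch2-11cKO and 0.0889 in WT by limma).

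**Figure D4:**
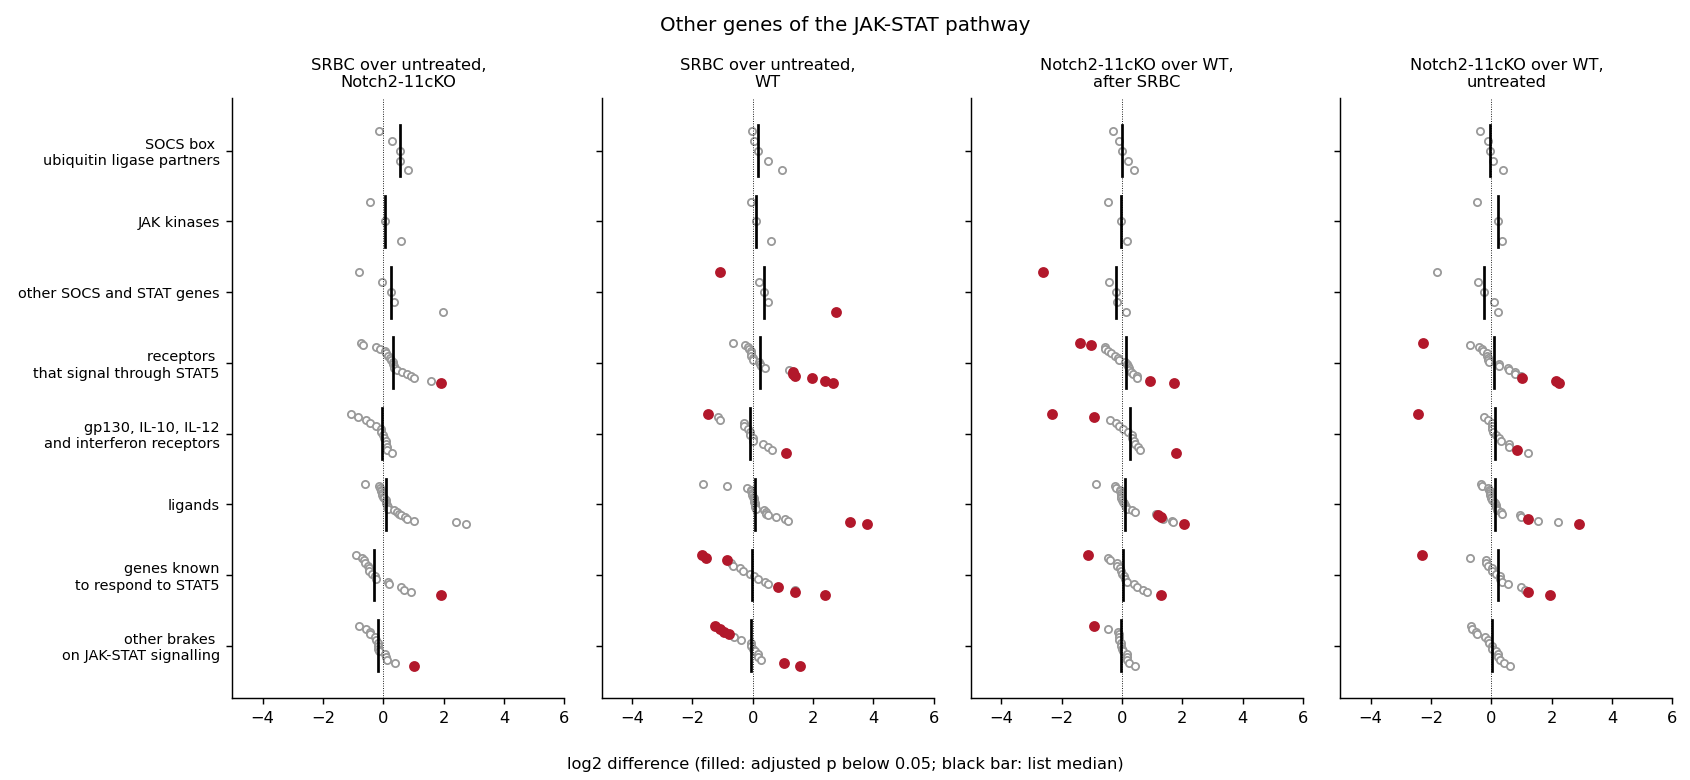
Log2 differences of the other measured genes of the pathway (points), by list, in the SRBC response of each genotype and between genotypes after SRBC and without treatment. Filled points passed the threshold and black bars mark list medians. Among receptors that can signal through STAT5, 6 of 20 rose after SRBC in WT and 1 in Notch2-11cKO, while no JAK kinase or SOCS box partner passed.

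Across the 10 arrays, the genes whose pattern was most like that of each member were described by Pearson r, among 2005 or 2006 genes whose group means spanned at least 1 log2 unit. The points are the same 10 arrays in 4 groups, so r mostly follows the group means. For Socs2 these genes were Il12b (r = 0.973), Samsn1 (r = 0.971), Rabgap1l (r = 0.963), Cd200 (r = 0.961), Gnb4 (r = 0.957) and Efnb2 (r = 0.953). Il12b read 8.26, 8.34 and 8.94 in Notch2-11cKO SRBC, 10.56, 8.58 and 9.01 in WT SRBC, 5.26 and 6.27 in Notch2-11cKO untreated and 5.19 and 5.99 in WT untreated, and like Socs2 it was highest on WT SRBC 1.

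For Cish, the most similar genes were Il6 (r = 0.978), Tnfaip2 (r = 0.96), Castor2 (r = 0.956), Mrpl39 (r = 0.932), Txnrd1 (r = 0.928) and Eid3 (r = 0.925). All of these, and Cish, were highest on Notch2-11cKO SRBC 3 and lowest in WT untreated. For Socs3 they were Sdc4 (r = 0.989), Sh3pxd2b (r = 0.988), Plxna1 (r = 0.978), F10 (r = 0.977), Ocrl (r = 0.977) and Pld3 (r = 0.976), which read higher on every Notch2-11cKO array than on any WT array. Among the members themselves, r was 0.757 between Cish and Socs3, 0.694 between Cish and Socs2 and 0.209 between Socs2 and Socs3.

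For the other members the closest genes were Scaper (r = 0.848) and Pmvk (r = 0.829) for Socs1, Csrp2 (r = 0.908) and Tex14 (r = 0.874) for Socs5, and Mospd3 (r = 0.927) and Myc (r = 0.896) for Socs6. They were Pdia6 (r = 0.862) and Polr2e (r = 0.814) for Socs7, Elp5 (r = 0.941) and Tmbim1 (r = 0.939) for Stat5a, and Ivns1abp (r = 0.804) and Gbp8 (r = 0.782) for Stat5b.

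**Figure D5:**
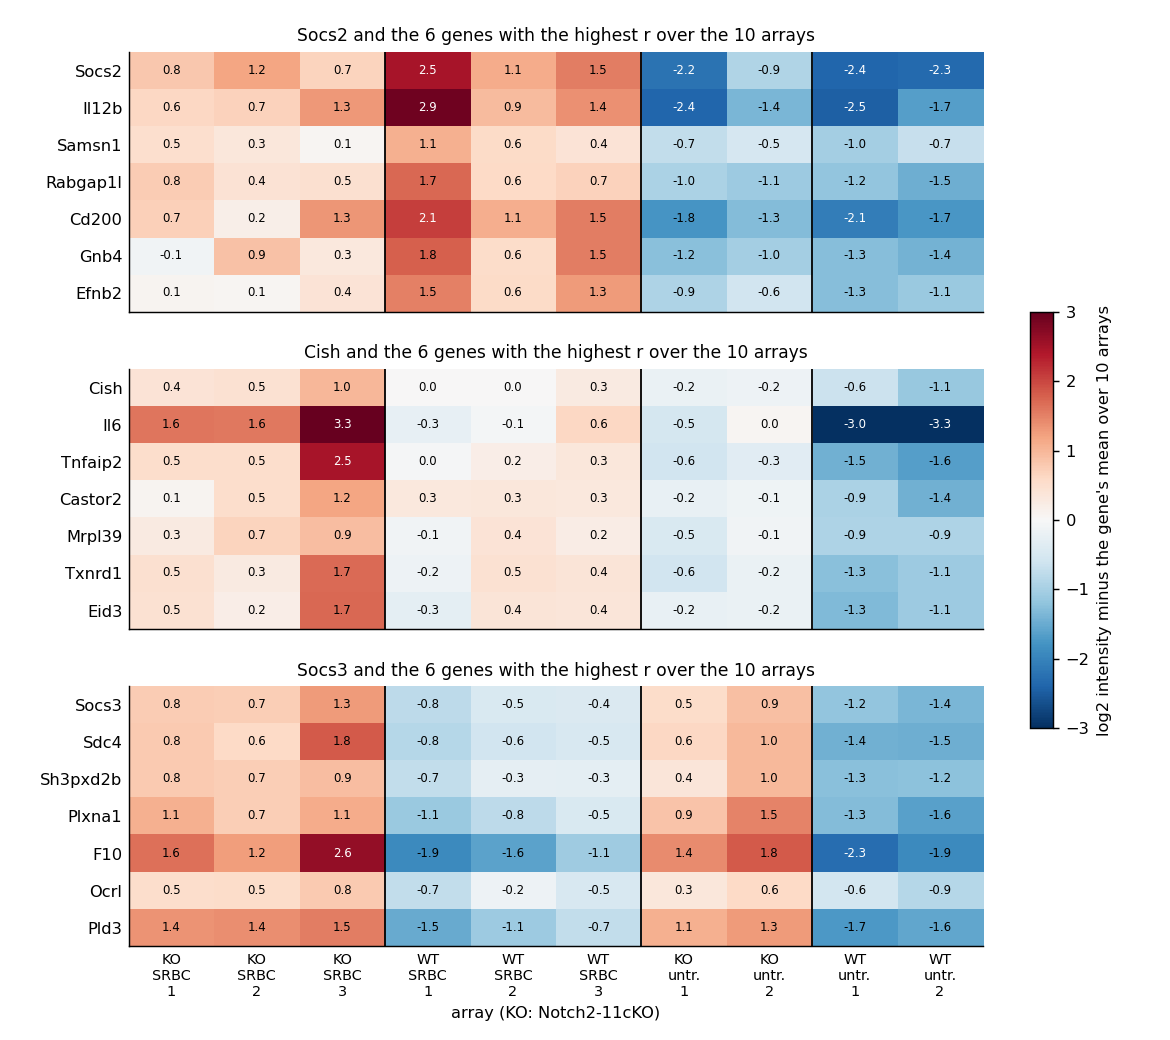
Log2 intensity minus the mean of the gene over the 10 arrays (colour and number in each cell) for Socs2, Cish and Socs3 and the 6 genes with the highest Pearson r to each, with arrays in columns (KO: Notch2-11cKO). The Socs2 block is high on all SRBC arrays, the Socs3 block on all Notch2-11cKO arrays, and the Cish block is lowest on the WT untreated arrays.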

How the data were processed

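RNA of 10 sorted samples had been labelled with the Ambion WT kit and hybridised to single-colour arrays, per the labels. The deposited table holds intensity values on a linear scale, which were treated as already normalized between arrays. None of the sources used here names a normalization method. Of 28853 probe sets, 21789 were paired with 1 gene symbol, 1621 with several and 5443 with none. Values were log2 transformed, and each of 19938 genes was represented by its brightest probe set on average (999 genes had several). Dim genes were kept. Levels are not compared between genes.

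A single limma model of the 4 group means (lmFit, then eBayes with trend; residual degrees of freedom 6, prior 5.25) gave 5 comparisons: SRBC over untreated within each genotype, Notch2-11cKO over WT after SRBC and without treatment, and the difference of the responses. P-values are two-sided and Benjamini-Hochberg adjusted over all genes, with a threshold of 0.05. Errors after ± are standard errors of the fit. No set test was run.

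The members and the gene lists (20 lists, 241 entries, of which 223 were measured) were chosen with earlier results of these data known. Named were all 9 members and Socs4, the JAK and other STAT genes, up to 4 genes past the threshold of each list with the smallest p, the neighbours of Socs2 in rank, and the genes most correlated with each member. From the last, predicted and clone genes, olfactory and antigen receptor genes, small RNAs and Y-linked genes were omitted. The values of Notch2, Csf2, Tslp and Arih2 and the members of small counts were named after they were seen. Promoter windows and gene positions came from RefSeq (GRCm38.p6). Alternatives changed the probe set rule, the filter, the normalization, the variance model, the weights, the arrays, a replicate block, an immediate-early covariate and a minimum fold. The fit was tested on simulated data. Software was R 4.3.3, limma 3.58.1, Python 3.11.15, matplotlib 3.10.9, pandas 2.3.3 and NumPy 2.4.6.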

Additional observations from a re-analysis of the deposited data

How the results depend on the processing

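Each comparison was repeated under 13 alternatives and with each of the 10 arrays left out in turn. No called difference of a member gene changed its direction. Both genotype calls of Socs3 held in all of these fits. The number of members past the threshold in the Notch2-11cKO response, 0 as reported, was 1 with array weights and 1 without WT SRBC 1 and Notch2-11cKO SRBC 3 together, in each case Socs6, and 0 to 1 with single arrays left out. In the WT response, 1 as reported, it was 3 with array weights and 3 without both of those arrays (Socs3, Cish and Stat5a). It was 0 with only genes above the median level, 0 with the immediate-early covariate, 0 with a change of at least 2-fold, and 0 to 1 with single arrays left out. Among untreated genotypes, 1 as reported, it was 2 with the mean of all probe sets (Socs3 and Socs6), 3 with array weights, 3 with only the groups compared and 3 without both of those arrays (Socs3, Socs6 and Cish), and 1 to 2 with single arrays left out. After SRBC, 1 as reported, it was 2 with the immediate-early covariate (Socs3 and Cish, log2 0.69, adjusted p = 0.0397 by limma) and 1 with any single array left out. In the difference of the responses it was 0 throughout. Other causes of these changes were not tested. The 2-fold minimum and the filter on dim genes remove Cish by construction. The immediate-early covariate follows treatment, so calls lost with it in an SRBC response cannot be assigned to either. The other probe sets of Socs2, Socs3 and Socs6 were added after seeing the data; on its second probe set Socs3 did not pass after SRBC (adjusted p = 0.154 by limma). The number of arrays limits what can be told apart, and each fit that leaves 1 untreated array assumes that it varies like the other groups.

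With the replicate number as a block, the count was 0 in the Notch2-11cKO response, 1 in the WT response, 2 between untreated genotypes (Socs3 and Cish, log2 0.71, adjusted p = 0.0428 by limma), 1 between genotypes after SRBC and 0 in the difference of the responses. The labels do not say that a number marks a shared litter or day. Deviations from the group means correlated between -0.218 and 0.479 over 13 pairs of arrays with the same number (median 0.104). Of these 13, 7 were above 0.1. Over 24 pairs with different numbers they correlated between -0.507 and 0.409 (median -0.1035), and 7 of the 24 were above 0.1. In a group of 2 arrays the deviations are exact opposites, so pairs with such arrays repeat the same values with the sign turned. The 2 medians therefore cannot show whether arrays with the same number deviate more alike. As the labels give no pairing, the main fit used none, and a shared batch was not tested.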

Other observations

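Of 20 measured maturation genes of dendritic cells, 9 rose after SRBC in WT and 2 in Notch2-11cKO, and none fell by limma, where 1.82% of all genes rose in WT and 0.306% passed in either direction in Notch2-11cKO. With single arrays left out the count was 4 to 10 in WT, lowest without WT untreated 1, and 0 to 8 in Notch2-11cKO, highest without WT SRBC 1. Both counts were 0 with the immediate-early covariate. Cd200 rose in both (log2 2.26 in Notch2-11cKO and log2 3.48 in WT), as did Ly75, the antigen uptake receptor DEC-205 (log2 2.11 in Notch2-11cKO and log2 3.44 in WT). The Notch2-11cKO calls held in 4 of 10 fits that left out an array for Cd200 and in 2 of 10 for Ly75 (highest adjusted p = 0.3 and 0.347, both without Notch2-11cKO untreated 1). Between genotypes after SRBC, 3 of the 20 were higher and 6 lower in Notch2-11cKO, against 5.32% of all genes in either direction. Without treatment 3 were higher and 1 lower, against 5.11% of all genes in either direction. The count of 9 after SRBC was 4 to 8 with single arrays left out, lowest without Notch2-11cKO SRBC 1. Ccl17 and Ccl22, chemokines that attract CCR4-bearing T cells, were among the higher genes, with Ccl17 at log2 3.66 after SRBC and log2 2.64 without treatment and Ccl22 at log2 2.04 after SRBC and log2 4.49 without treatment. Cd86, a costimulatory ligand, was lower at log2 -1.27 after SRBC, with any single array left out. Its untreated difference, log2 -1.16, kept its call in 4 of those 10 fits (highest adjusted p = 0.326, without Notch2-11cKO untreated 1) and was lost with arrays centred on their median (adjusted p = 0.0728).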
